A study of Mus musculus with 8 samples.

Results

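The gene set described here holds 46 genes of the ATF4 and amino acid response, a list of gene names drawn up with earlier results of these data known. All 46 had a probe on the array, out of 34797 gene names, and 43 were bright enough to be tested. RNA came from wk3, mouse pre-B cells of the genotype SLP-65-/-, without the signalling adaptor SLP-65, which are grown in an excess of the cytokine IL-7, supplied as medium of IL-7-secreting J558L cells. All 4 groups shared this genotype, a retroviral vector and a puromycin selection of a few days. The vector encoded either a scrambled sponge, as the control, or a sponge against the whole miR-15 family, that is, a decoy transcript that binds these microRNAs and keeps them from their targets. Cells with each vector were sampled in IL-7 or 36 h after its withdrawal, a step used to start their differentiation, which makes 4 groups, called scrambled or sponge cells with or without IL-7 below. Each group had 2 arrays, which per the study's design text come from repeat experiments with separately derived clones, and this number limits the precision of every value. Sponge activity was not measured on these arrays.

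ATF4 is a basic leucine zipper transcription factor whose messenger RNA is translated efficiently when the initiation factor eIF2 is phosphorylated, by GCN2 when amino acids run short, by PERK in endoplasmic reticulum stress, or by the kinases PKR and HRI. In growing lymphocytes mTORC1 signalling also raises ATF4 output. ATF4 pairs with C/EBP proteins on composite C/EBP-ATF elements and switches on genes that make amino acids, import them and load them on transfer RNA, and, under lasting stress, genes such as Ddit3 (CHOP), Trib3 and Chac1. A signal on these arrays is a messenger RNA level and gives no measure of ATF4 protein.

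The microRNAs that the sponge was designed to bind share their seed, the stretch at bases 2 to 8 that pairs with targets. The RefSeq mature sequences of the 6 named family members are shown because they define the treatment, with the seed in capitals.
mmu-miR-15a-5p: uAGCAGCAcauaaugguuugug
mmu-miR-15b-5p: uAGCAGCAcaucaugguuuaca
mmu-miR-16-5p: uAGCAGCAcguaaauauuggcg
mmu-miR-195a-5p: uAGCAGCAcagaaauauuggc
mmu-miR-322-5p: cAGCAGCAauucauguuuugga
mmu-miR-497a-5p: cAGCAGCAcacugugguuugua

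A short element lies near the start of a minority of the members. RefSeq windows of 300 bases (build GRCm38.p6, 250 before the annotated start to 50 after it) were matched for 38 of the 46 genes and searched on both strands. The element TGATGCAA, a C/EBP-ATF sequence known from ATF4 targets, lay in the windows of 11 of the 38 genes, which is 28.9%, against 1.03% of the 27025 genes with a window. With position 6 left free, as TGATGNAA, which includes every TGATGCAA, it lay in 14 genes, or 36.8%, against 4.51% of all genes. Such a match is a description of the letters and was not tested as a binding site. The 9 stretches of 30 bases below come from members whose levels are described further on. They run 5′ to 3′ along the strand of the gene, with the match in capitals, and the number before the colon is the position of its first base counted from the annotated start, which is 0.
Chac1, chr2:119351038-119351067, plus strand, -193: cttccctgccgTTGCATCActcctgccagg
Atf3, chr1:191183425-191183454, minus strand, -110: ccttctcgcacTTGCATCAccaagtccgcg
Pycr1, chr11:120643833-120643862, minus strand, -103: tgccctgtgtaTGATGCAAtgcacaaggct
Iars, chr13:49682126-49682155, plus strand, 7: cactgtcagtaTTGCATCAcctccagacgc
Tars, chr15:11399655-11399684, minus strand, -15: caggagtcccgTTGCATCAgctggttagct
Slc1a4, chr11:20332699-20332728, minus strand, -4: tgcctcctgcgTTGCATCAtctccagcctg
Asns, chr6:7693214-7693243, minus strand, -23: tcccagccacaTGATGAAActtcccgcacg
Trib3, chr2:152344028-152344057, minus strand, 14: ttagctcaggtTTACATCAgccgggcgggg
Gars, chr6:55037960-55037989, plus strand, -30: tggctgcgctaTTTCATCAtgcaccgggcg

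Chac1, Atf3, Pycr1, Iars, Tars and Slc1a4 carry the exact element in these stretches, and Asns, Trib3 and Gars only the form with the free position. Other genes with an exact match included Nupr1, Slc7a11, Vldlr and Yars, and Slc7a11 held 2 copies. Tars and Slc1a4 carry the exact element and did not pass the test in any comparison below, while Nupr1 and Slc7a11 were not above background on any array. Cth, Slc7a3, Slc7a5, Slc1a5, Cars, Lars, Nars and Wars had no matched window.

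**Figure D1:**
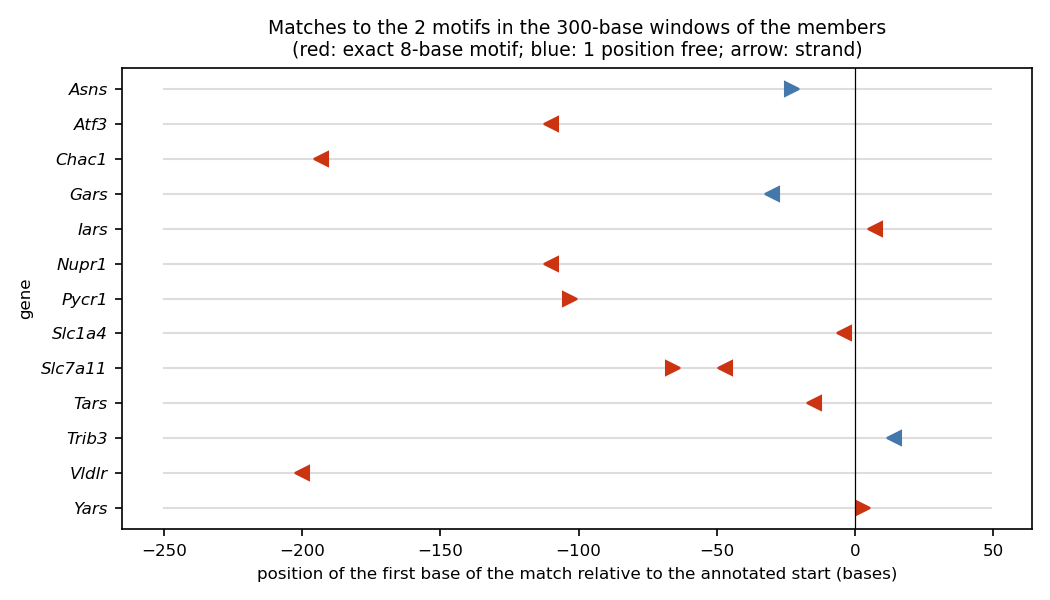
Position of each match in the windows of 13 of the 14 member genes that hold one, in bases from the annotated start at 0. Red triangles are the exact TGATGCAA element, blue triangles the form with position 6 free, and the triangle points right where the match lies on the strand of the gene; most matches lie before the start, and Slc7a11 has 2 exact ones.

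Levels below are log2 of the scanner's processed signal above the 75th percentile of the same array, so that 0 is that percentile and a step of 1 is a factor of 2. They are compared between groups for one gene and never between genes. A change is the difference of 2 group means with its standard error (SE), and a gene was called where limma's moderated test, adjusted by Benjamini-Hochberg over all 21337 features, gave an adjusted p under 0.05. Between 50.57% and 56.55% of the spots on an array were well above background. The 10 pre-B cell markers looked at were above background on all 8 arrays, and 4 of 5 fibroblast markers (Col1a1, Col3a1, Dcn and Pdgfra) on 0. Of the markers of other blood cells, 3 of 7 for T cells, 3 of 7 for myeloid cells, 3 of 5 for NK cells and 2 of 5 for erythroid cells were above background on all 8. The summed linear level of the T cell list, relative to the 75th percentile, was 17 to 17.6 in scrambled and 13.5 to 14 in sponge cells with IL-7, and 19.4 to 19.7 and 13.6 to 14.1 without. For the myeloid list these sums were 16.1 to 21.4, 14 to 18.1, 27.1 to 27.5 and 17.8 to 18.5, for the NK list 0.769 to 0.81, 0.798 to 0.858, 1.02 to 1.04 and 0.68 to 0.712, and for the erythroid list 1.5 to 1.66, 1.67 to 1.84, 1.66 to 1.75 and 1.81 to 1.98. The fibroblast sum ranged from 0.0995 to 0.172 over all arrays. A linear sum follows its brightest gene, Lck for the T cell and Itgam for the myeloid list. On withdrawal in scrambled cells Lck rose by 0.31 (adjusted p = 0.0133) and Cd3e fell by 0.33 (adjusted p = 0.0292). Itgam rose by 0.61 there (adjusted p = 0.0422), while Lyz2 was called lower with both groups below background (adjusted p = 0.0374). In sponge cells Lyz2 fell at least 2.03-fold (adjusted p = 0.0104). The NK receptor gene Klrd1 was called in all 4 comparisons, at 3.05 on withdrawal in scrambled cells and -2.65 for the sponge without IL-7. It was not well above background in sponge cells with IL-7, so its rise on withdrawal in sponge cells was at least 1.99-fold and its level with the sponge in IL-7 at least 1.5-fold lower. Prf1 of the same list fell on withdrawal, by 0.50 in scrambled cells (adjusted p = 0.00636) and by 0.57 in sponge cells (adjusted p = 0.0104). Klrb1c rose by 0.27 in scrambled cells (adjusted p = 0.0445). Cd3g, Thy1, Ly6g and Ncr1 were above background on 0 arrays. The part of such markers in the results was not tested. All arrays lay on 1 slide, on which the IL-7 state filled 1 column each and the 2 constructs different rows, so slide position and group cannot be told apart.

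Most of the tested members fell when IL-7 was removed. A minority was called higher with the sponge in IL-7, and most were higher with it after withdrawal. After withdrawal in scrambled cells 29 of the 43 tested members fell and 0 rose, where 27.4% of all features were called lower and 20.8% higher. In sponge cells 27 fell and 0 rose, against 15.2% and 7.94% of all features. With quantile normalization 25 members fell and 2 rose in scrambled cells, beside 4959 and 5273 of all features. In sponge cells 20 fell and 2 rose, beside 1961 and 2094. With the sponge in IL-7, 11 members were higher and 1 lower, where 0.314% of all features were called higher and 0.815% lower. This background depended on the setting. With another background correction (normexp) 160 features in place of 67 were called higher and 234 in place of 174 lower, and 12 members were higher. Without a filter on dim probes these numbers were 21, 62 and 3. The background also moved where single arrays were left out, most without scrambled replicate 2 with IL-7. Without IL-7, 29 members were higher in sponge cells and 2 lower, against 16.7% and 15.4% of all features. Slc6a9 and Cebpb were kept only through sponge cells with and without IL-7, respectively, and Slc7a3 only through scrambled cells without IL-7. Their calls in these counts are no support, since the filter took them in through the group where they were high. The median change of the tested members was -0.61, -0.48, 0.46 and 0.54 in these 4 comparisons in turn, and that of all features -0.02, -0.06, 0.01 and -0.05. The 2 withdrawal comparisons share no arrays with each other, and neither do the 2 sponge comparisons. A withdrawal and a sponge comparison do share arrays, and an opposite sign in such a pair is no separate observation. In bulk RNA a smaller number of cells with a transcript and less of it in each cell cannot be told apart.

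**Figure D2:**
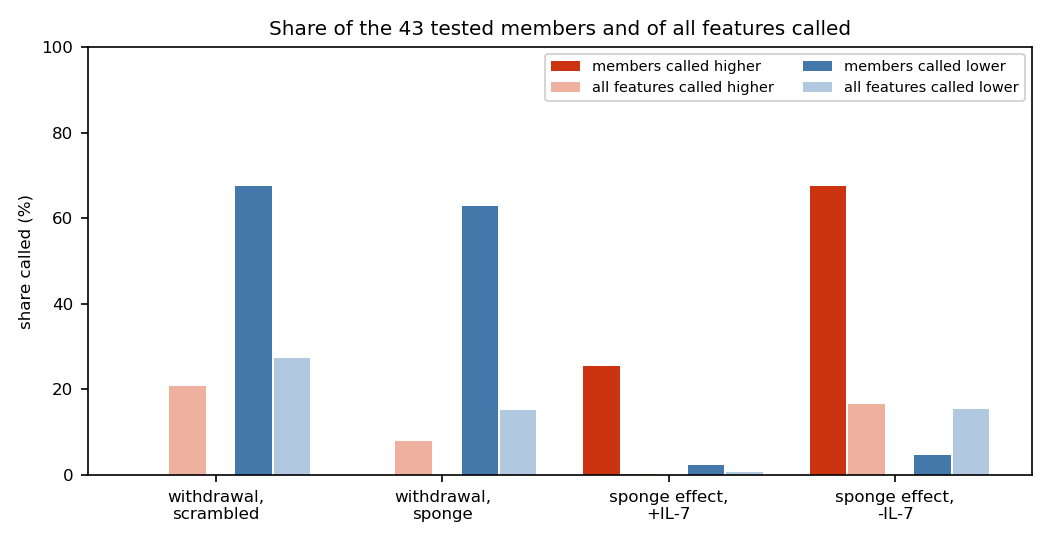
Share of the 43 tested members (dark bars) and of all 21337 features (pale bars) called higher (red) or lower (blue) at an adjusted p under 0.05, in percent, for IL-7 withdrawal in each kind of cell and for sponge against scrambled cells in each medium. Members were called lower on withdrawal 29 and 27 times and higher in sponge cells 11 and 29 times, with 0 called higher on withdrawal in either kind of cell.

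Atf4 itself, the central activator, had 7.15 and 7.08 in scrambled cells with IL-7, 7.62 and 7.63 in sponge cells with IL-7, 6.75 and 6.82 in scrambled cells without it and 7.19 and 7.16 in sponge cells without it. The sponge arrays lay above the scrambled arrays in each medium, with no overlap. The difference was 0.51 ± 0.07 (SE) with IL-7, 1.42-fold (adjusted p = 0.0411), and 0.39 ± 0.07 without, 1.31-fold (adjusted p = 0.00901). The call with IL-7 was lost with the replicate block (adjusted p = 0.0809) and without a filter on dim probes (adjusted p = 0.131), and was kept in 1 of the 8 fits that left out one array, with differences between 0.47 and 0.55. Withdrawal changed Atf4 by -0.33 ± 0.07 in scrambled cells (adjusted p = 0.0104) and by -0.45 ± 0.07 in sponge cells (adjusted p = 0.0089), and these 2 calls turned on the scaling: with quantile normalization the values were 0.10 (adjusted p = 0.218) and -0.03 (adjusted p = 0.775). A second Atf4 probe gave -0.59, -0.42, 0.51 and 0.68 for the withdrawals in scrambled and sponge cells and the sponge with and without IL-7.

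Trib3, a pseudokinase that is induced by ATF4 and feeds back on it, read -1.57 and -1.61 in scrambled cells with IL-7 and 0.33 and 0.25 in sponge cells with IL-7. After withdrawal it read -2.42 and -2.40 in scrambled and -1.43 and -1.44 in sponge cells. Sponge cells without IL-7 thus read only a little above scrambled cells in IL-7, and the other groups were far apart. Trib3 was higher in sponge cells by 1.88 ± 0.07 with IL-7, 3.69-fold (adjusted p = 0.00045), and 0.97 ± 0.07 without, 1.96-fold (adjusted p = 0.00111). On withdrawal Trib3 fell by 0.81 ± 0.07 on the log2 scale in scrambled cells (adjusted p = 0.000459) and by 1.72 ± 0.07 in sponge cells (adjusted p = 0.00159). The fall was larger in sponge cells by the test of the difference itself, by -0.91 ± 0.09 (adjusted p = 0.0307), a call that was lost with the replicate block (adjusted p = 0.0508) and in 6 of the 8 fits that left out one array.

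Ddit3 encodes CHOP, the stress factor that is usually read as a sign of a strong ATF4 response. Its arrays were 1.22 and 1.17 in scrambled and 1.45 and 1.58 in sponge cells with IL-7, then 1.25 and 1.46 in scrambled and 1.37 and 1.29 in sponge cells without. The sponge arrays were the higher pair with IL-7 and lay between the scrambled pair without it. No comparison was called: the sponge difference was 0.32 ± 0.10 with IL-7 (adjusted p = 0.176) and -0.02 ± 0.10 without (adjusted p = 0.89), and withdrawal gave 0.16 ± 0.10 (adjusted p = 0.235) and -0.19 ± 0.10 (adjusted p = 0.233). These values do not show that Ddit3 was unaffected.

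Atf3, a stress-induced factor of the same family, read -2.82 and -2.93 in scrambled and -2.09 and -2.11 in sponge cells with IL-7, and -3.86 and -3.89 against -2.10 and -2.16 without. The sponge arrays had nearly the same level in both media, and the scrambled arrays did not. The withdrawal change was -1.0025 ± 0.07 in scrambled cells (adjusted p = 0.000366) and -0.03 ± 0.07 in sponge cells (adjusted p = 0.791), and these differed by 0.97 ± 0.10 (adjusted p = 0.0307). The sponge difference was 0.78 ± 0.07 with IL-7 (adjusted p = 0.0152) and 1.75 ± 0.07 without, 3.36-fold (adjusted p = 0.000743). After another background correction (normexp), the sponge difference with IL-7 was 0.33 (adjusted p = 0.114), and the difference between the withdrawals was 0.29 (adjusted p = 0.236).

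Among the remaining regulators, Atf5 and Cebpg, a dimer partner of ATF4, fell in scrambled cells by 0.83 (adjusted p = 0.000781) and 0.46 (adjusted p = 0.00319) and were 0.94 (adjusted p = 0.00134) and 0.54 (adjusted p = 0.0031) higher in sponge cells without IL-7. Atf5 also fell by 0.33 in sponge cells (adjusted p = 0.0401). Cebpb, another partner, was well above background only in sponge cells without IL-7, at -4.51 and -4.08. The other 6 arrays read -7.29 to -5.15. Against scrambled cells without IL-7 it was at least 2.06-fold higher, taking the lowest signal well above background on each array as the floor (adjusted p = 0.00619), and normexp gave 0.21 (adjusted p = 0.125). In all, 5 of the 7 tested regulators fell on withdrawal in scrambled cells and 3 in sponge cells, beside 27.4% and 15.2% of all features. With the sponge 3 were higher in IL-7 and 6 without it, beside 0.314% and 16.7%. The 6 include Cebpb, whose call is no support, since the filter took it in through sponge cells without IL-7. Nupr1, a stress-induced chromatin protein, was above background on 0 of 8 arrays and was not tested.

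**Figure D3:**
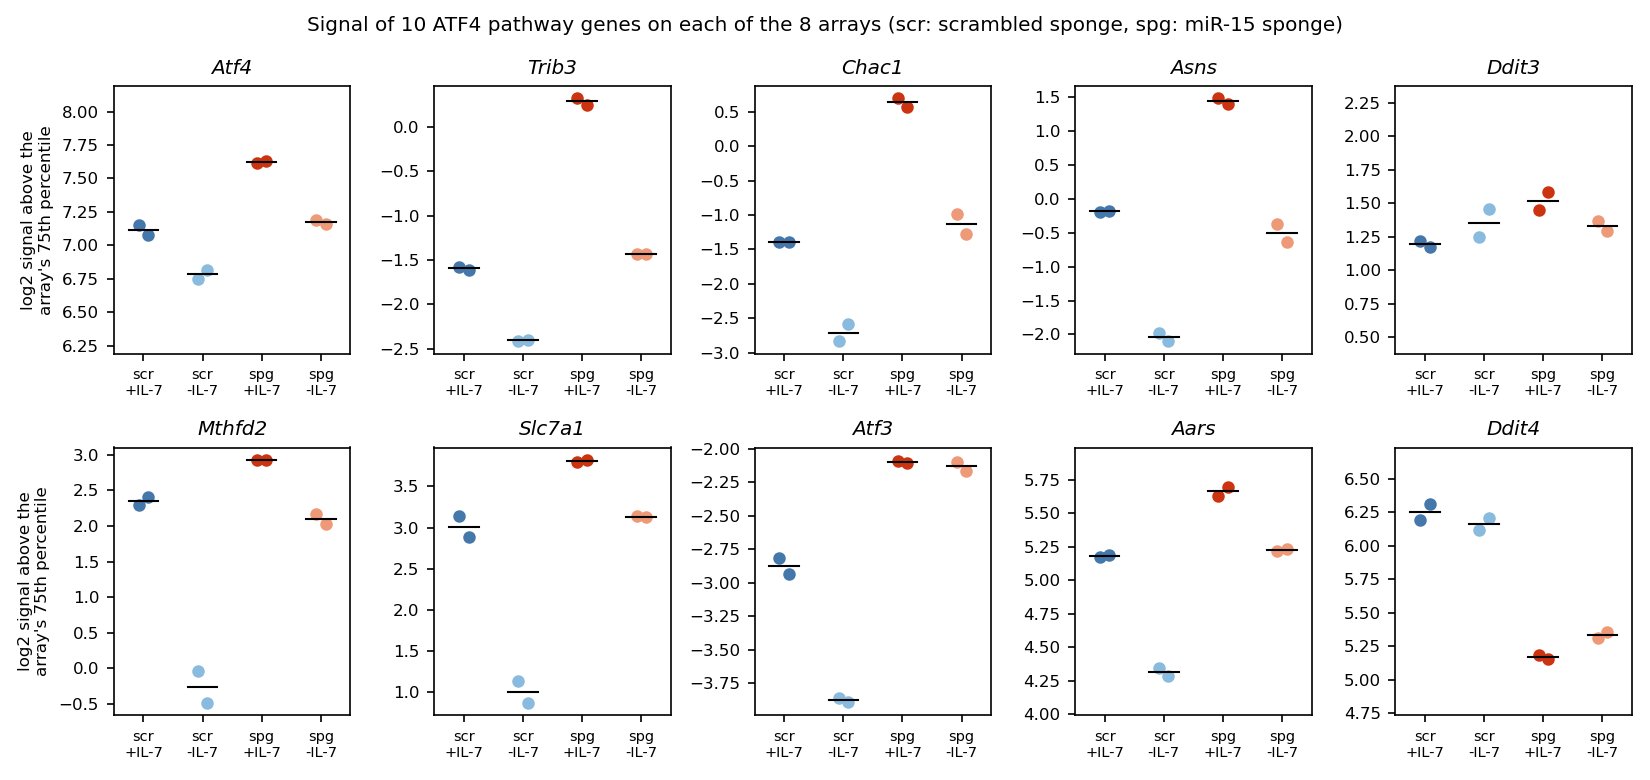
Signal of 10 member genes on each of the 8 arrays, as log2 above the 75th percentile of the array, with 1 point per array and a line at the mean of each pair. The vertical axes span at least 2 log2 units and start at different values in each panel; Atf4, Trib3, Chac1, Asns, Mthfd2, Slc7a1 and Aars are highest in sponge cells with IL-7 and lowest in scrambled cells without it, while Ddit4 is higher in scrambled cells.

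Chac1 encodes an enzyme that breaks down glutathione and is a sensitive ATF4 target. It read -1.39 and -1.40 in scrambled and 0.70 and 0.58 in sponge cells with IL-7, and -2.84 and -2.58 against -0.98 and -1.27 without. Each sponge pair lay above its scrambled pair, and the lowest sponge array without IL-7 still lay above the scrambled arrays with it. Chac1 was higher in sponge cells by 2.03 ± 0.14 with IL-7, 4.09-fold (adjusted p = 0.00568), the largest among the tested members in that comparison, and 1.58 ± 0.14 without, 2.99-fold (adjusted p = 0.00133). Withdrawal lowered it by 1.31 ± 0.14 in scrambled cells (adjusted p = 0.000828) and by 1.77 ± 0.14 in sponge cells (adjusted p = 0.0022). In the fits that left out one array each, the call with IL-7 was lost only without sponge replicate 1 with IL-7, where the highest adjusted p of these fits, 0.052, occurred.

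Ddit4, whose product REDD1 restrains mTORC1, went the other way. Its arrays were 6.19 and 6.31 in scrambled and 5.18 and 5.16 in sponge cells with IL-7, and 6.12 and 6.21 against 5.31 and 5.36 without. The sponge difference was -1.08 ± 0.08 with IL-7 (adjusted p = 0.00745) and -0.83 ± 0.08 without (adjusted p = 0.00143). Withdrawal gave -0.09 ± 0.08 in scrambled cells (adjusted p = 0.38), which turned to 0.38 with quantile normalization (adjusted p = 0.0121), and 0.17 ± 0.08 in sponge cells (adjusted p = 0.185).

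Vldlr, a lipoprotein receptor, fell on withdrawal by 0.94 (adjusted p = 0.00348) and 0.74 (adjusted p = 0.0187) in scrambled and sponge cells and was 0.66 higher in sponge cells without IL-7 (adjusted p = 0.0197). Sesn2, a leucine-binding inhibitor of mTORC1, read 2.29 to 2.58 over the 8 arrays, and none of its comparisons was called. Stc2, a secreted glycoprotein, was above background on 0 arrays.

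Asns makes asparagine and is the textbook target of the amino acid response. It read -0.19 and -0.17 in scrambled and 1.49 and 1.40 in sponge cells with IL-7, and -1.97 and -2.10 against -0.37 and -0.63 without. The pairs did not overlap in any of the 4 comparisons. Asns was higher in sponge cells by 1.63 ± 0.11 with IL-7, 3.09-fold (adjusted p = 0.00575), and 1.54 ± 0.11 without, 2.90-fold (adjusted p = 0.00111). Withdrawal lowered Asns by 1.86 ± 0.11 in scrambled cells, 3.62-fold (adjusted p = 0.000265), and by 1.94 ± 0.11 in sponge cells, 3.85-fold (adjusted p = 0.00159). The 2 falls differed by -0.09 ± 0.15 (adjusted p = 0.767).

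Of the mitochondrial folate enzymes, Mthfd2 and Mthfd1l had another shape. The difference between the withdrawals was not called for Shmt2 (0.38, adjusted p = 0.128). Mthfd2, which with Mthfd1l and Shmt2 turns serine into one-carbon units in mitochondria, read 2.29 and 2.40 in scrambled and 2.93 and 2.92 in sponge cells with IL-7, then -0.04 and -0.48 against 2.17 and 2.02 without. The scrambled arrays without IL-7 stood far below the other 3 groups. Its fall in scrambled cells was 2.61 ± 0.15 on the log2 scale, 6.09-fold (adjusted p = 0.000267), and in sponge cells 0.83 ± 0.15, 1.77-fold (adjusted p = 0.0163). The difference between these falls was 1.78 ± 0.22 (adjusted p = 0.0307). With IL-7 the sponge difference was 0.58 ± 0.15 (adjusted p = 0.142), and without IL-7 it was 2.36 ± 0.15, 5.12-fold (adjusted p = 0.00111).

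Mthfd1l read 4.01 and 3.90 in scrambled and 4.32 and 4.49 in sponge cells with IL-7, and 1.82 and 1.66 against 3.44 and 3.31 without. It fell by 2.22 ± 0.10 in scrambled cells (adjusted p = 0.000235) and by 1.03 ± 0.10 in sponge cells (adjusted p = 0.00359), a difference of 1.19 ± 0.15 (adjusted p = 0.0307). Shmt2 was 3.61 and 3.57, then 4.33 and 4.39 with IL-7, and 2.12 and 2.25, then 3.28 and 3.39 without. It was higher in sponge cells in both media, by 0.77 ± 0.08 with IL-7 (adjusted p = 0.0227) and by 1.15 ± 0.08 without (adjusted p = 0.00113), and fell on withdrawal by 1.40 and 1.02 (adjusted p = 0.000265 and 0.00234).

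The serine pathway runs through Phgdh, Psat1 and Psph. Psat1, its transaminase, read 4.00 and 4.00 in scrambled and 4.27 and 4.38 in sponge cells with IL-7, and 2.23 and 1.88 against 3.48 and 3.49 without. It fell by 1.95 ± 0.12 in scrambled cells, 3.86-fold (adjusted p = 0.000295), and by 0.84 ± 0.12 in sponge cells (adjusted p = 0.00835), a difference of 1.11 ± 0.18 (adjusted p = 0.0341). Phgdh, the first enzyme, fell by 0.79 (adjusted p = 0.000728) and 0.48 (adjusted p = 0.0104), and Psph, the last, by 0.44 (adjusted p = 0.00527) and 0.45 (adjusted p = 0.0123). All 3 were higher in sponge cells without IL-7, by 1.43, 0.80 and 0.31 for Psat1, Phgdh and Psph (adjusted p = 0.00133, 0.00151 and 0.028).

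Pycr1, which completes proline synthesis, was dim. It read -4.26 and -3.52 in scrambled and -2.94 and -2.87 in sponge cells with IL-7, and -5.49 and -6.16, not well above background, against -4.54 and -4.11 without. It was at least 2.73-fold lower after withdrawal in scrambled cells (adjusted p = 0.00466) and at least 2.02-fold higher with the sponge in cells without IL-7 (adjusted p = 0.018). In sponge cells it fell by 1.42 ± 0.32 (adjusted p = 0.0294). A second Pycr1 probe, above background on 3 arrays and not kept, gave -0.18 and -1.48 for withdrawal in scrambled and sponge cells. For the sponge that probe gave 1.63 with IL-7 and 0.33 without. Aldh18a1, the first enzyme of the same route, fell by 0.63 in scrambled cells (adjusted p = 0.0131) and was 0.48 higher with the sponge in cells without IL-7 (adjusted p = 0.0484).

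Gpt2, a mitochondrial alanine transaminase, was called in 1 comparison. It read -3.19 and -2.91 in scrambled and -2.26 and -1.80 in sponge cells with IL-7, and -3.46 and -3.06 against -3.28 and -3.42 without. It fell by 1.32 ± 0.21 in sponge cells, 2.50-fold (adjusted p = 0.00966), and its change in scrambled cells was -0.21 ± 0.21 (adjusted p = 0.435). The 2 changes differed by -1.11 ± 0.29 (adjusted p = 0.0922). The transsulfuration genes Cth and Cbs were not called, Cth at -1.33 to -0.84 and Cbs at -5.28 to -3.74 over the 8 arrays. Of the 12 enzymes, 9 fell on withdrawal in scrambled and 9 in sponge cells, beside 27.4% and 15.2% of all features. With the sponge 2 were higher in IL-7 and 9 without it, beside 0.314% and 16.7%.

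**Figure D4:**
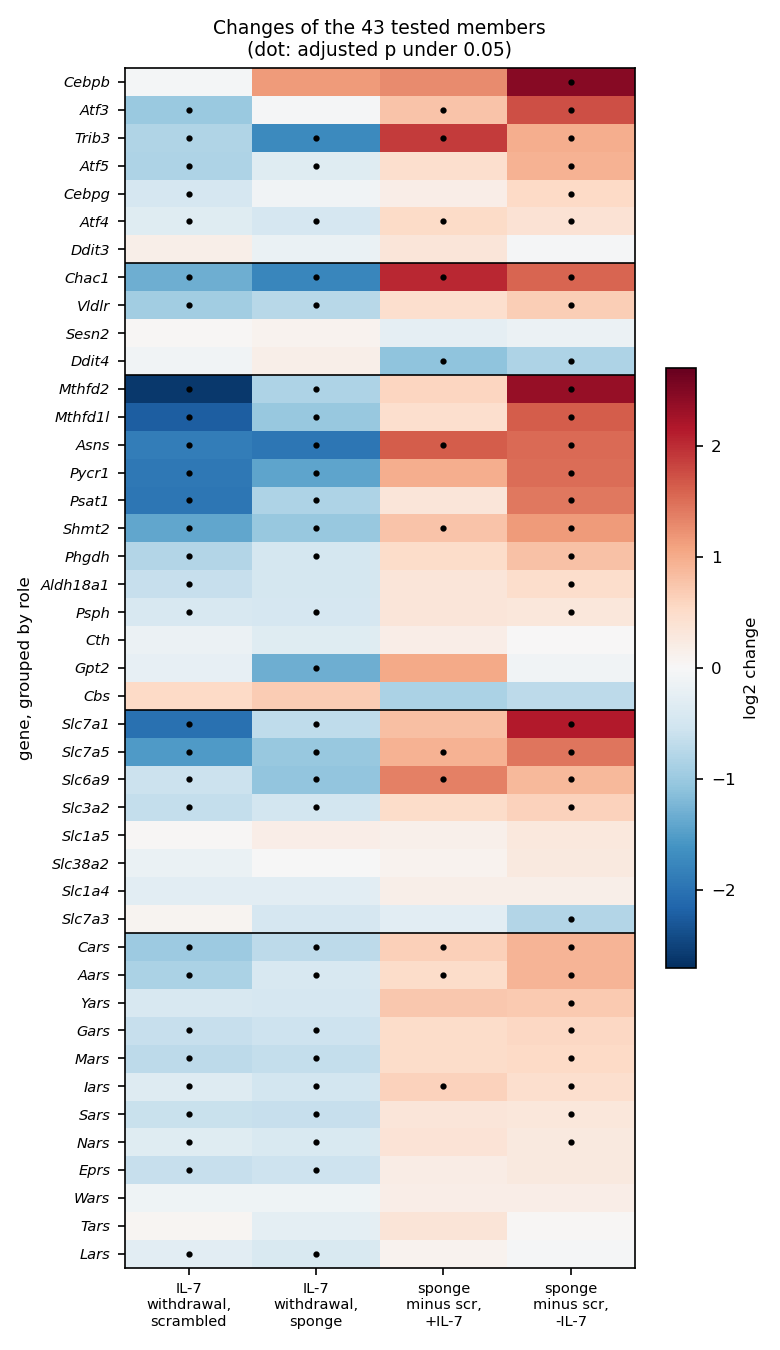
Log2 change of each of the 43 tested members (rows, grouped by role between the black lines: regulators, stress effectors, enzymes, transporters, synthetases) in the 2 withdrawal and the 2 sponge comparisons (columns). Blue is lower after withdrawal or in sponge cells, red is higher, and a dot marks an adjusted p under 0.05; the withdrawal columns have dots only on blue cells, and the sponge columns mostly on red ones, with Ddit4 and Slc7a3 the blue exceptions.

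Slc7a1, the importer of arginine and lysine, read 3.14 and 2.88 in scrambled and 3.80 and 3.83 in sponge cells with IL-7, and 1.13 and 0.87 against 3.14 and 3.13 without. Sponge cells without IL-7 had the level of scrambled cells with it, and scrambled cells without IL-7 lay far below. It fell by 2.01 ± 0.12, 4.03-fold, in scrambled cells (adjusted p = 0.000283) and by 0.68 ± 0.12, 1.60-fold, in sponge cells (adjusted p = 0.0154), a difference of 1.33 ± 0.18 (adjusted p = 0.0307). The sponge difference was 0.80 ± 0.12 with IL-7 (adjusted p = 0.0559) and 2.13 ± 0.12 without, 4.39-fold (adjusted p = 0.00111).

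Slc7a5 and Slc3a2 form the large neutral amino acid exchanger. Slc7a5 read 1.097 and 1.017 in scrambled and 1.90 and 2.09 in sponge cells with IL-7, and -0.46 and -0.50 against 0.84 and 1.09 without. It fell by 1.54 ± 0.11 in scrambled cells (adjusted p = 0.000366) and by 1.03 ± 0.11 in sponge cells (adjusted p = 0.0041), and was 0.93 ± 0.11 (adjusted p = 0.0322) and 1.44 ± 0.11 (adjusted p = 0.00124) higher with the sponge. A second Slc7a5 probe gave the same signs with smaller sizes, -0.37, -0.44, 0.21 and 0.14. Slc3a2, the heavy chain, fell by 0.64 (adjusted p = 0.00964) and 0.50 (adjusted p = 0.0439) and was 0.63 higher with the sponge in cells without IL-7 (adjusted p = 0.0155).

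Slc6a9, a glycine transporter, was well above background only in sponge cells with IL-7, at -4.29 and -4.12. It was at least 1.96-fold higher there than in scrambled cells (adjusted p = 0.0236) and at least 2.09-fold higher than after withdrawal (adjusted p = 0.00692). Its calls between groups that were both below background, in scrambled cells on withdrawal (adjusted p = 0.0211) and with the sponge in cells without IL-7 (adjusted p = 0.00759), carry no fold, and the second turned to -0.03 with normexp (adjusted p = 0.825). Slc7a3, another cationic importer, read -4.29 and -4.55 in scrambled and -5.08 and -5.36 in sponge cells without IL-7, lower by 0.80 ± 0.22 on the log2 scale (adjusted p = 0.0384), where 1 of the 2 sponge arrays was above background. Slc38a2, Slc1a4 and Slc1a5, carriers of glutamine and other neutral amino acids, were not called, and their changes lay between -0.29 and 0.28. Slc7a11, the cystine importer, was above background on 0 arrays. Of the 8 tested transporters, 4 fell on withdrawal in each kind of cell, beside 27.4% (scrambled) and 15.2% (sponge) of all features. In sponge cells 2 were higher with IL-7 and 4 without, beside 0.314% and 16.7%. Slc7a3 was the 1 called lower there without IL-7, beside 15.4%. Slc6a9 is in all of the counts of transporters that fell or were higher. Its calls are no support, since the filter took it in through sponge cells with IL-7.

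The aminoacyl-tRNA synthetases load amino acids on their transfer RNA. Of the 12, 9 fell on withdrawal in scrambled cells and 9 in sponge cells, beside 27.4% and 15.2% of all features. They were Aars, Cars, Eprs, Gars, Iars, Lars, Mars, Nars and Sars each time. The median change over the 12 genes was -0.51 and -0.48. With quantile normalization the calls of Gars, Iars and Lars in scrambled cells and of Aars, Gars and Lars in sponge cells were lost. Cars had the largest falls, from 4.23 and 4.11 to 3.21 and 3.18 in scrambled cells and from 4.83 and 4.80 to 4.15 and 4.07 in sponge cells. It changed by -0.97 ± 0.08 (adjusted p = 0.000406) and by -0.70 ± 0.08 (adjusted p = 0.00397). Aars read 5.17 and 5.18 in scrambled and 5.63 and 5.70 in sponge cells with IL-7, and 4.35 and 4.28 against 5.22 and 5.23 without, so that sponge cells without IL-7 had the level of scrambled cells with it.

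With the sponge in IL-7, 3 synthetases were higher, Cars by 0.64 (adjusted p = 0.0295), Iars by 0.61 (adjusted p = 0.0364) and Aars by 0.49 (adjusted p = 0.0443). Without IL-7, 8 were higher, between 0.27 for Nars (adjusted p = 0.0251) and 0.91 for Aars and Cars (adjusted p = 0.00117 and 0.00129). These counts stand beside 0.314% of all features called higher with IL-7 and 16.7% without. The 3 that stayed uncalled on withdrawal were Tars, Wars and Yars, with changes between -0.45 and 0.06, and of these Yars was 0.70 higher with the sponge in cells without IL-7 (adjusted p = 0.0236). A second Wars probe gave -0.45 on withdrawal in scrambled cells, -0.10 in sponge cells, and 0.14 with and 0.49 without IL-7 for the sponge. With the mean of its probes Wars was called on withdrawal in scrambled cells and with the sponge in cells without IL-7. None of the 12 synthetases was called for a difference between the 2 withdrawals. Lars read 4.09 and 3.94 in scrambled and 4.09 and 4.15 in sponge cells with IL-7, a sponge difference of 0.10 (adjusted p = 0.485).

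Across the 43 tested members, 11 were called higher with the sponge in both media (Atf3, Atf4, Trib3, Chac1, Asns, Shmt2, Slc7a5, Slc6a9, Aars, Cars and Iars), and 26 were called lower on withdrawal in both kinds of cell. Slc6a9 is counted here although both groups without IL-7 were below background. The share of all features called in both was not counted. It was at most 0.314% for the first count and 15.2% for the second, the share in the sparser comparison. The sponge difference was above 0 in both media for 36 members and below 0 in both for 4. Of all features, 33.7% were above 0 in both and 36.9% below. Pearson's r between the 2 sponge comparisons was 0.69 across the members and 0.54 across all features, a description across genes, which are not independent replicates. The mean was highest in sponge cells with IL-7 for 37 of the 43 members, where 33.8% of all features had their highest mean there, and lowest in scrambled cells without IL-7 for 34, against 35.9%, both shares being of the 21332 features with a value on all 8 arrays. Sponge cells without IL-7 minus scrambled cells with it had a median of -0.06 over the members and -0.05 over all features, and 37 of 43 members were within 0.5, a share near the 80.2% of all features. Atf3 lay above that range at 0.74, and the lowest was Ddit4 at -0.92. Cebpb also lay above it as measured, but has only a bound, since it was not well above background in scrambled cells with IL-7. With the probe that stood for each gene, Ddit3, Sesn2, Cth, Cbs, Slc38a2, Slc1a4, Slc1a5, Tars and Wars were called in none of the 4 comparisons.

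**Figure D5:**
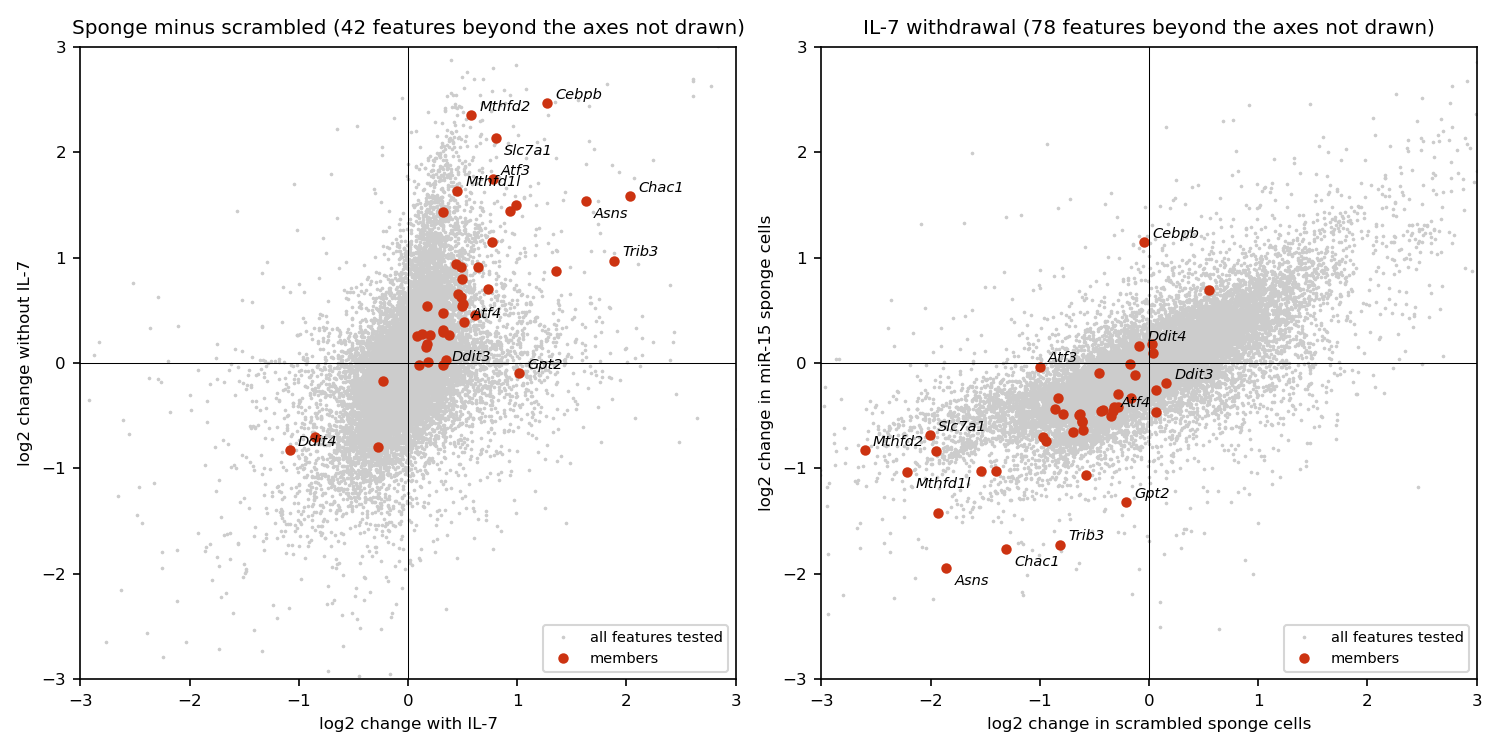
Log2 change of each tested feature (grey) and member (red) for sponge minus scrambled cells with IL-7 against without (left) and for withdrawal in scrambled against sponge cells (right). The axes end at 3 on either side, and 42 and 78 features beyond them are not drawn; 36 of 43 members lie above 0 on both axes on the left, Mthfd2 and Slc7a1 are high on the axis without IL-7, where Cebpb is drawn at its measured value although scrambled cells were not above background, and Asns, Chac1 and Trib3 are the lowest labelled members on the right.

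The number of calls with the sponge in IL-7 depended on the setting. With the replicate number as a block, 7 members were called higher in place of 11, and without a filter on dim probes 3. Leaving out one array gave 1 call higher without sponge replicate 1 with IL-7 (Trib3), 2 without replicate 2, 4 without scrambled replicate 1 with IL-7, 3 without either scrambled array and 4 without either sponge array of the cells without IL-7, and 13 without scrambled replicate 2 with IL-7. The log2 differences of the 11 members stayed above 0 in each of these fits, with a lowest value of 0.45 for Aars, and Trib3 was called in all 8. For withdrawal in sponge cells, 12 members were called lower without sponge replicate 2 with IL-7 or sponge replicate 2 without IL-7, and 17 without sponge replicate 1 without IL-7, in place of 27.

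The difference between the 2 withdrawals was called for 6 of the 43 members, 5 of them higher (a smaller fall in sponge cells: Atf3, Psat1, Mthfd2, Mthfd1l and Slc7a1) and 1 lower (Trib3). Of all features, 4.32% were called higher and 0.951% lower. With the replicate block these 6 had adjusted p between 0.0508 and 0.0555, and 0 members were called. The same 0 came without a filter on dim probes, and in both of these fits 0 of all features were called, so that the loss is not one of the members alone. It also came when scrambled replicate 1 with IL-7, scrambled replicate 2 without IL-7 or any of the 4 sponge arrays was left out, with 0 of all features called in each except without scrambled replicate 1 with IL-7, where 10 were higher and 2 lower.

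The counts of the lists that follow stand beside the shares of all features given above, which went both ways: 20.8% higher and 27.4% lower on withdrawal in scrambled cells, 7.94% and 15.2% in sponge cells, 0.314% and 0.815% with the sponge in IL-7 and 16.7% and 15.4% without. Of 16 genes for eIF2 kinases, eIF2 subunits and phosphatases, 5 rose and 6 fell on withdrawal in scrambled cells and 3 rose and 3 fell in sponge cells. With the sponge 0 were called in IL-7, and without it 5 were higher and 4 lower. Eif2ak4, which encodes the amino acid sensor GCN2, rose by 1.08 ± 0.07 in scrambled cells (adjusted p = 0.000291) and by 0.41 ± 0.07 in sponge cells (adjusted p = 0.0123), and was -0.72 ± 0.07 in sponge against scrambled cells without IL-7 (adjusted p = 0.00146). Eif2ak3, which encodes PERK, rose by 0.86 (adjusted p = 0.000766) and 0.48 (adjusted p = 0.0143). Both thus rose where most of the members fell. Ppp1r15a, the stress-induced subunit (GADD34) that brings a phosphatase to eIF2, rose by 1.14 (adjusted p = 0.000371) and 0.58 (adjusted p = 0.00781) and was -0.96 with the sponge in cells without IL-7 (adjusted p = 0.00134).

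Of 13 other tested ATF4 pathway genes, Ppp1r15a among them, 4 rose and 1 fell on withdrawal in scrambled cells, 1 rose and 2 fell in sponge cells, 1 was higher with the sponge in IL-7, and 2 were higher and 4 lower without. Jdp2, a repressor of the same zipper family, was 2.84 ± 0.26 higher with the sponge in IL-7, 7.17-fold, with 1 of the 2 scrambled arrays above background (adjusted p = 0.0128). In cells without IL-7 it was at least 8.07-fold higher (adjusted p = 0.00133), and withdrawal gave -0.09 and 0.09 (adjusted p = 0.801 and 0.848). Its sponge calls are no support, since the filter took Jdp2 in only through sponge cells, where it was high. Of 11 other cytosolic synthetases and their scaffold proteins, 5 fell in scrambled and 2 in sponge cells, 0 were called with the sponge in IL-7 and 3 were higher without it. Kars, the lysyl-tRNA synthetase, fell by 0.91 (adjusted p = 0.000907) and 0.42 (adjusted p = 0.0299). Of 16 mitochondrial synthetases, 6 fell and 2 rose in scrambled cells, 3 fell in sponge cells, 0 were called with the sponge in IL-7 and 3 were higher without it.

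Of 15 other one-carbon and folate genes, 8 fell and 2 rose in scrambled cells and 8 fell in sponge cells. With the sponge 0 were called in IL-7 and 6 were higher without it, and 4 fell less in sponge cells by the test of the difference. Mthfd1, the cytosolic counterpart of Mthfd2, fell by 2.32 ± 0.11 (adjusted p = 0.000235) and 0.92 ± 0.11 (adjusted p = 0.00454), a difference of 1.40 ± 0.15 (adjusted p = 0.0307), and Gart, a purine synthesis enzyme that uses formyl folate, fell by 1.69 ± 0.06 (adjusted p = 0.000235) and 0.67 ± 0.06 (adjusted p = 0.00343). Their sponge differences were 0.37 and 0.36 with IL-7 (adjusted p = 0.163 and 0.0674) and 1.77 and 1.38 without (adjusted p = 0.00111 and 0.000853).

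Of 12 other amino acid transporters, 5 rose and 1 fell in scrambled cells and 3 rose and 2 fell in sponge cells; 1 was lower with the sponge in IL-7, and 1 was higher and 4 lower without. Slc7a7 rose by 1.29 and 0.82 (adjusted p = 0.000366 and 0.00447) and was -0.96 with the sponge in cells without IL-7 (adjusted p = 0.00157). Among 24 genes of mTORC1 and amino acid sensing, 6 rose and 4 fell in scrambled cells, 1 rose and 1 fell in sponge cells, 0 were called with the sponge in IL-7, and 3 were higher and 5 lower without it. Of 13 genes for sensors and chaperones of the unfolded protein response, 3 rose and 3 fell in scrambled cells, 1 rose and 1 fell in sponge cells, 0 were called with the sponge in IL-7, and 5 were higher and 1 lower without.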

How the data were processed

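RNA from 8 cultures, 2 in each of 4 groups, was hybridised to 1-colour Cy3 Agilent arrays. The deposited scanner files give a processed signal as an intensity on a linear scale, background-subtracted and detrended within the array per the file headers. Feature Extraction is version 10.7.1.1 per the submitters' processing notes and 10.7.3.1 per the file headers. The deposited value table, also an intensity, has the same distribution on every array, and its software is not given in the sources used here. Between 128 and 277 spots an array carried the scanner's outlier marks (population or uniformity) and were dropped, spots of a probe averaged as log2 signal minus the 75th percentile of the array (297.3 to 410.24), and a probe was used where 1 group or more had it well above background on each of its 2 arrays (30963 of 55681). The kept probe with the highest mean stood for a gene. The 46 members had 59 probes. Nupr1, Stc2 and Slc7a11 had no kept probe. The 4 group means were fitted with limma 3.58.1 in R 4.3.3 (4 residual degrees of freedom, prior 1.811, two-sided, adjusted over all features), with 5 contrasts. On simulated data for withdrawal in scrambled cells, 200 of 21332 features were changed at each size. Of changes of 0.5, 1 and 2 on the log2 scale, 0%, 54.5% and 83% were recovered. In the real comparison 4428 features were called higher and 5837 lower, which loosens the adjusted threshold. The simulated shares are therefore not the power of that comparison.

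Replicates are numbered in the labels, and the study's design text describes repeat experiments with separate clones. Same-numbered arrays deviated together only weakly (correlations of 0.0173 to 0.1313), so the pairing rests on that text; the fit with the replicate number as a block is an alternative. The labels do not say that IL-7 states of 1 experiment were separate infections, and p-values measure the spread between these arrays. The members and gene lists were chosen with earlier results of these data known. Full statistics are given for Atf4, Ddit3, Trib3, Chac1 and Asns and for the 6 largest called rises and falls of the members in each contrast, and other lists name up to 3 called genes each. Promoter windows and microRNAs are from RefSeq tables (GRCm38.p6). One promoter match and a few genes of the other lists are not reported here. Other settings were quantile normalization, normexp (offset 50), the deposited table, no filter, a filter on all 8 arrays, the mean of a gene's probes, the replicate block and leaving out each array.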

Additional observations from a re-analysis of the deposited data

Results flagged for a closer look

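For 6 members the withdrawal effect differed between sponge and scrambled cells by limma's test of the difference itself, given as the change in sponge minus that in scrambled cells on the log2 scale. The 5 positive values were 1.78 for Mthfd2, 1.33 for Slc7a1, 1.19 for Mthfd1l, 1.11 for Psat1 and 0.97 for Atf3. Trib3 had the 1 negative value, -0.91. The means behind the largest of these, Mthfd2, fell from 2.35 to -0.26 in scrambled cells and from 2.92 to 2.10 in sponge cells. Trib3 went from -1.59 to -2.41 and from 0.29 to -1.43. With the replicate block the adjusted p was 0.0508 for Atf3, Trib3, Mthfd2, Mthfd1l and Slc7a1 and 0.0555 for Psat1.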

How the results depend on the processing

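Over the settings tried, 2876 of the values of single members kept their side of the threshold, 275 lost a call, 44 gained one, and 5 changed sign with a call on one side or the other. Sign changes of values that were called under neither setting are not counted. The 5 were Atf4 on withdrawal in scrambled cells, 0.10 with quantile normalization and 0.10 with the deposited table, Ddit4 in the same comparison, 0.38 with either, and Slc6a9 with the sponge in cells without IL-7, -0.032 with normexp. With either of these scalings 2 members, Ddit4 and Slc1a5, were called higher on withdrawal in scrambled cells and the same 2 in sponge cells. Members called lower numbered 25 in place of 29 in scrambled cells, without Atf4, Gars, Iars and Lars. In sponge cells they numbered 20 in place of 27, without Atf4, Atf5, Phgdh, Slc3a2, Aars, Gars and Lars. Among all called features the share that was higher on withdrawal in sponge cells went from 34.3% to 51.6%. For the sponge with IL-7 that share was 27.8%, against 40.6% with normexp, 38.9% with probes above background on all 8 arrays and 61.6% without scrambled replicate 2 with IL-7. The members called higher with the sponge in IL-7 numbered 3 without a filter and 7 with the replicate block, which lost Atf4, Slc7a5, Slc6a9 and Aars. The block also lost Atf5 and Slc3a2 and gained Aldh18a1 on withdrawal in sponge cells, gained Slc1a5 with the sponge in cells without IL-7, and changed no member's call on withdrawal in scrambled cells. For the difference between withdrawals 3 members (Chac1, Gpt2 and Trib3) were called lower with normexp, and 0 higher and 0 lower without a filter or with the replicate block. Leaving out single arrays, which also leaves fewer degrees of freedom, gave 24 to 29 members lower and 0 to 1 higher on withdrawal in scrambled cells, 12 to 27 lower and 0 to 1 higher in sponge cells, 1 to 13 higher and 0 to 1 lower with the sponge in IL-7, 20 to 29 higher and 1 to 2 lower without, and 0 to 5 higher and 0 to 1 lower for the difference. Trib3 was called in the 4 simple comparisons under every setting, and so was Asns except with the sponge in IL-7, where 2 of 15 settings lost the call. The other causes of these shifts were not tested. Dim members such as Cebpb, Pycr1 and Slc6a9 are limited by their signal over background, and their sponge differences without IL-7 were 0.21 for Cebpb and 0.14 for Pycr1 with normexp.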

Other observations

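Ddit4 and Jdp2 were among the genes that did not follow the common pattern, with means higher in sponge than scrambled cells and higher with IL-7. By their means 33 of the 43 tested members followed it, against 25.1% of all features. The other members outside it were Cbs, Cebpb, Ddit3, Gpt2, Lars, Sesn2, Slc1a5, Slc7a3 and Tars. The sponge differences of Cbs, Sesn2 and Slc7a3 were below 0 in both media, as for Ddit4. Ddit4 was lower in sponge cells in both media, while Jdp2, an AP-1 family repressor outside the 46 genes, was higher in both and did not pass the test on withdrawal. With the sponge Jdp2 was 7.17-fold higher in IL-7 and at least 8.07-fold higher without. These calls are no support, since the filter took Jdp2 in only through sponge cells, where it was high. Among pre-B cell markers, 4 of 10 were lower and 1 higher in sponge against scrambled cells without IL-7, beside 15.4% and 16.7% of all features, with Pax5 at -0.60, and 0 of 10 were called with IL-7. Among the NK markers Klrd1, a lectin-like receptor, was 3.05 higher after withdrawal in scrambled cells, 8.31-fold, with 1 of the 2 arrays in IL-7 above background, and 2.65 lower on the log2 scale in sponge than in scrambled cells without IL-7. On withdrawal Prf1, above background on all 8 arrays, fell by 0.50 in scrambled and 0.57 in sponge cells (adjusted p = 0.00636 and 0.0104). Klrb1c rose by 0.27 in scrambled cells (adjusted p = 0.0445), and Ncr1 was above background on 0 arrays.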
